A study of Homo sapiens with 11 samples.

Results

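Expression of 9 genes was followed in MDA-MB-468 cells: the tumour necrosis factor superfamily ligands TNF, TNFSF15, LTB, TNFSF10, TNFSF9, TNFSF14 and TNFSF13B, and the TRAIL receptors TNFRSF10A and TNFRSF10B. They were taken by symbol from the 22395 genes that had a probe set with 1 gene symbol, and where a gene had several such probe sets the one with the highest mean over the 11 arrays was used. All 9 were found, and all 9 passed the filter on low values, which left 15865 genes for testing. MDA-MB-468 is an established line of triple-negative human breast cancer cells from a pleural effusion. The groups were TNF at 40 ng/ml plus apigenin at 40 µM (3 arrays), apigenin alone at 40 µM (2 arrays), TNF alone at 40 ng/ml (3 arrays) and untreated control cells (3 arrays), each after 24 h. Apigenin is a flavone of food plants. All arrays come from this 1 line, both agents were prepared in a buffered salt solution, and the labels call the control untreated and name no vehicle. The labels do not say whether replicates were separate cultures, so the p-values cover array-to-array spread alone, and that spread may be technical.

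Ligands of this superfamily are mostly trimeric membrane proteins, some of which are cut from the cell surface, and they act on receptors that either recruit TRAF adaptors and activate NF-kB or carry a death domain. TNF and lymphotoxin are classical products of NF-kB activity, so cells that receive TNF can make more of the messenger RNA for it. TRAIL, the product of TNFSF10, is a ligand known for triggering apoptosis in many tumour cells through the death receptors DR4 (TNFRSF10A) and DR5 (TNFRSF10B). The arrays measured the cells' own messenger RNA, to which the added TNF protein does not contribute.

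The epithelial markers EPCAM, KRT7, KRT8, KRT18, KRT19, CDH1 and EGFR all had means above 4 on the log2 scale, with EGFR the highest at 10.8, while ESR1 (2.35) and PGR (1.49) lay below 2.53, the median of all probe set means, which served as a mark of background. Known target genes of the agents were also measured. TNFAIP3, the gene of the NF-kB inhibitor A20, rose 10.5-fold with TNF (limma adjusted p = 1.1e-07), and CYP1A1, a target of the aryl hydrocarbon receptor, rose with apigenin alone by 1.73 on the log2 scale (limma adjusted p = 0.00236). NFKBIA and ICAM1 rose with TNF too, by 1.4 (limma adjusted p = 0.00258) and 1.67 (limma adjusted p = 0.000457), and CYP1B1 rose with apigenin alone by 0.97 (limma adjusted p = 0.0098). With TNF plus apigenin, CYP1A1 and CYP1B1 were not called against control, at 0.27 (limma adjusted p = 0.63) and 0.08 (limma adjusted p = 0.869). Array 1 of the apigenin group had a narrower distribution than the others, with an interquartile range of 2.4 over the tested genes against 2.63 to 2.91 on the other 10 arrays. Apigenin against control had a median change over all tested genes of -0.18, and adding TNF to apigenin one of 0.16. The interaction, which is the TNF response with apigenin minus that without it, had a median of 0.23, and the other comparisons lay between -0.04 and 0.02. Several comparisons share arrays: each of the 3 conditions with an agent was set against the same control arrays, and TNF plus apigenin was also set against TNF and against apigenin.

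The sequences before the starts of 4 ligand genes are shown because TNF and TNFSF15 changed with TNF and TNFSF10 with apigenin. LTB, which passed no test, is shown beside its neighbour TNF on chromosome 6. Each is the 250 bases before the annotated start, 5′ to 3′ on the gene's strand, by RefSeq (GRCh38.p14). The set of promoter sequences available here covered 7 of the 9 genes. Capitals mark motif matches. They are from TNF, chr6:31575315-31575564, plus strand; TNFSF15, chr9:114792531-114792780, minus strand; LTB, chr6:31582426-31582675, minus strand; and TNFSF10, chr3:172523431-172523680, minus strand.
TNF: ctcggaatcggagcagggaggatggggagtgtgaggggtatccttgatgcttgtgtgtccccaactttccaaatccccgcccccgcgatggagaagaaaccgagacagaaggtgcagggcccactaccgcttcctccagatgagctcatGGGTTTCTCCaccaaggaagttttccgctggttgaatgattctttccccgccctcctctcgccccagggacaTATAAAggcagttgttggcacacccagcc
TNFSF15: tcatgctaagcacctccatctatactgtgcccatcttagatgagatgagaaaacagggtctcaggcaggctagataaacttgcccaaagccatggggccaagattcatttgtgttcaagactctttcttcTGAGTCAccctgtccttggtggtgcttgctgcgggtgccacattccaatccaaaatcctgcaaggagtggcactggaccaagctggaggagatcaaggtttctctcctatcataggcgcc
LTB: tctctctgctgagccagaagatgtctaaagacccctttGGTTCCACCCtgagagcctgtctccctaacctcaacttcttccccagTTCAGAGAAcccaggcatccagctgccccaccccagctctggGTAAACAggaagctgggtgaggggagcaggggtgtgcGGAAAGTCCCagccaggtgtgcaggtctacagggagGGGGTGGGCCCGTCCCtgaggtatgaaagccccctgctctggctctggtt
TNFSF10: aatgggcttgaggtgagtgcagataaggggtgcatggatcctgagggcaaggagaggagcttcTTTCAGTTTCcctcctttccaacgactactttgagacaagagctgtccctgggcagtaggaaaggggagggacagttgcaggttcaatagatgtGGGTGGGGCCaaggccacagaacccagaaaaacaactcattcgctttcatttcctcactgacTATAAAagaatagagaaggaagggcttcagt

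Searched on both strands were the NF-kB consensus, a looser NF-kB pattern (GGG, any 5 bases, then CC, which holds every consensus match), AP-1 (TGANTCA), the core of the interferon-stimulated response element (GAAA, any 2 bases, then GAAA), the gamma-activated site of STAT factors (TTCNNNGAA), a FOXO motif (GTAAACA), the core of the xenobiotic response element (GCGTG) and the TATA box (TATAAA). The TNF window held 1 looser NF-kB match, at bases -101 to -92 from the start, and a TATA box at -29 to -24. LTB held an NF-kB consensus match at -86 to -77, a motif found in 11.8% of the 27305 genes with a promoter. The looser pattern was found in 57.8% of them. LTB also held a gamma-activated site at -165 to -157 (8.09% of genes) and a FOXO motif at -123 to -117 (3.66%). Its other looser NF-kB matches lay at -212 to -203 and, overlapping each other, between -50 and -35. The TNFSF15 window held an AP-1 match at -120 to -114 (8.06% of genes) and no match to either NF-kB pattern. TNFSF10 held the core of an interferon-stimulated response element at -187 to -178 (3.71% of genes), a looser NF-kB match at -93 to -84, and a TATA box at -31 to -26 (13.0% of genes). The percentages count a gene if any of its promoters held the motif, over 35116 promoters in all. For the genes described here 1 promoter each was searched. These matches describe letters in a short window and do not show binding.

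**Figure D1:**
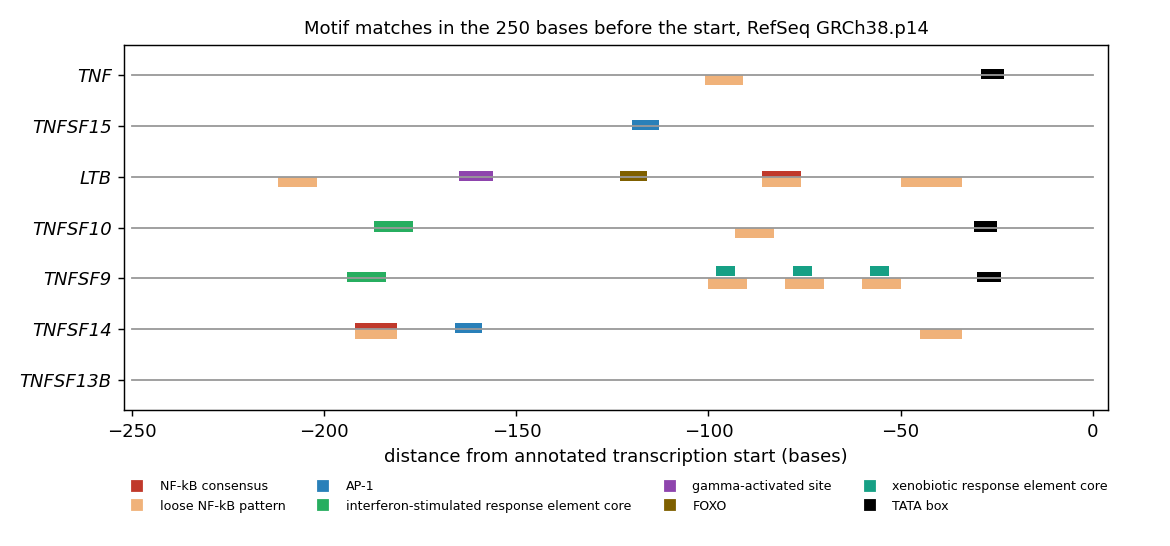
Motif matches in the 250 bases before the annotated start of 7 ligand genes, by distance from the start in bases (horizontal axis). Each coloured box is a match on either strand, placed above or below the line only for legibility. LTB and TNFSF14 hold the NF-kB consensus, TNF, TNFSF10 and TNFSF9 only the looser NF-kB pattern, and TNFSF13B none of the 8 motifs.

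TNF raised the messenger RNA of TNF itself and of TNFSF15, in cells with and without apigenin. For TNFSF15 with apigenin the call stood at the threshold (limma adjusted p = 0.0497), and 13 of 21 alternative fits lost it. No other ligand of the 9 genes passed the test. The TNF gene encodes the inflammatory cytokine that was added to the medium. Its probe set read 5.98, 5.91 and 5.52 on the log2 scale on the arrays of TNF plus apigenin, 4.17 and 4.22 with apigenin, 5.98, 5.85 and 5.29 with TNF, and 3.9, 3.98 and 3.87 in control. Every array with TNF lay above every array without it, and array 3 was the lowest of both TNF-treated groups. TNF averaged 5.71 ± 0.37 with TNF and 3.92 ± 0.06 in control (SD, n = 3 each), a rise of 1.79 ± 0.2 (log2, SE) or 3.46-fold (limma adjusted p = 0.000161). The apigenin arrays lay above the control arrays, by 0.27, which did not pass the test (limma adjusted p = 0.531). On the TNF probe set that was not used, apigenin (3.64 and 2.99) and control (3.19, 3.16 and 3.24) overlapped. With apigenin present, TNF rose by 1.61 ± 0.22 or 3.06-fold over apigenin alone (limma adjusted p = 0.00271; adjusted p = 0.0587 without apigenin replicate 1, at a rise of 1.59). The difference between both TNF responses was -0.18, not called, with a 95% interval of -0.81 to 0.45 (limma adjusted p = 0.829), and TNF plus apigenin against TNF alone differed by 0.09, with an interval of -0.33 to 0.52.

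TNFSF15 encodes TL1A, a ligand of the death domain receptor DR3 known as a costimulator of T cells. It read 4.2, 4.11 and 3.83 with TNF plus apigenin, 3.04 and 2.98 with apigenin, 4.63, 3.93 and 4.35 with TNF, and 2.97, 2.83 and 3.19 in control. The arrays with and without TNF did not overlap here either, and all arrays without TNF lay close to background. TNFSF15 averaged 4.3 ± 0.35 with TNF and 3 ± 0.18 in control (SD, n = 3 each), a rise of 1.31 ± 0.2 on the log2 scale (limma adjusted p = 0.00322). Because the control lies near background, no fold is given. TNF plus apigenin lay above control by 1.05 ± 0.2 (limma adjusted p = 0.00915) and above apigenin by 1.04 ± 0.22 (limma adjusted p = 0.0497). The last of these calls was lost in 13 of 21 alternative fits, with changes between 0.94 and 1.15 throughout and an adjusted p of up to 0.242. Among these were 7 of the 11 fits with an array left out, namely control 1 or 3, TNF 3, either apigenin array, and TNF plus apigenin 1 or 2. Adding apigenin to TNF changed TNFSF15 by -0.26, with an interval of -0.68 to 0.16, and the interaction was -0.27, with an interval of -0.9 to 0.36 (limma adjusted p = 0.75).

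LTB encodes lymphotoxin beta, which anchors lymphotoxin alpha at the cell surface and signals through LTBR. It read 3.17, 3.32 and 3.32 with TNF plus apigenin, 3.24 and 2.88 with apigenin, 3.72, 3.71 and 3.65 with TNF, and 3.05, 2.97 and 3.4 in control. The 3 TNF arrays were the highest of all 11 and lay close together. The difference between TNF and control was 0.55 ± 0.17 and did not pass the test (limma adjusted p = 0.283, unadjusted p = 0.00572). With TNF plus apigenin LTB was 0.43 below TNF alone (log2 change -0.43, limma adjusted p = 0.347), and it differed from apigenin alone by 0.21 (limma adjusted p = 0.637).

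In all, TNF against control called 2 of the 9 genes higher and 0 lower, where limma called 0.700% of all 15865 genes (0.473% higher and 0.227% lower). In that comparison 4 of the 9 had an unadjusted p under 0.05, as did 7.41% of all genes, and 4 had arrays that did not overlap, as did 13.3%. TNF plus apigenin against apigenin also called 2 of the 9 higher and 0 lower, where 0.574% of all genes were called (0.529% higher and 0.0441% lower, which is 84 and 7 genes, or 78 and 18 after quantile normalization). There 3 of the 9 had an unadjusted p under 0.05, as did 15.7% of all genes, and 4 had arrays that did not overlap, as did 25.7%. The interaction called 0 of the 9 in limma, where 0.0252% of all genes were called (0.0126% higher and 0.0126% lower), and 0 of the 9 had an unadjusted p under 0.05, as did 8.16% of all genes. The median change of the 9 genes was 0.2 for TNF against control, against -0.04 for all genes, and 0.32 for TNF plus apigenin against apigenin, against 0.16 for all genes.

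**Figure D2:**
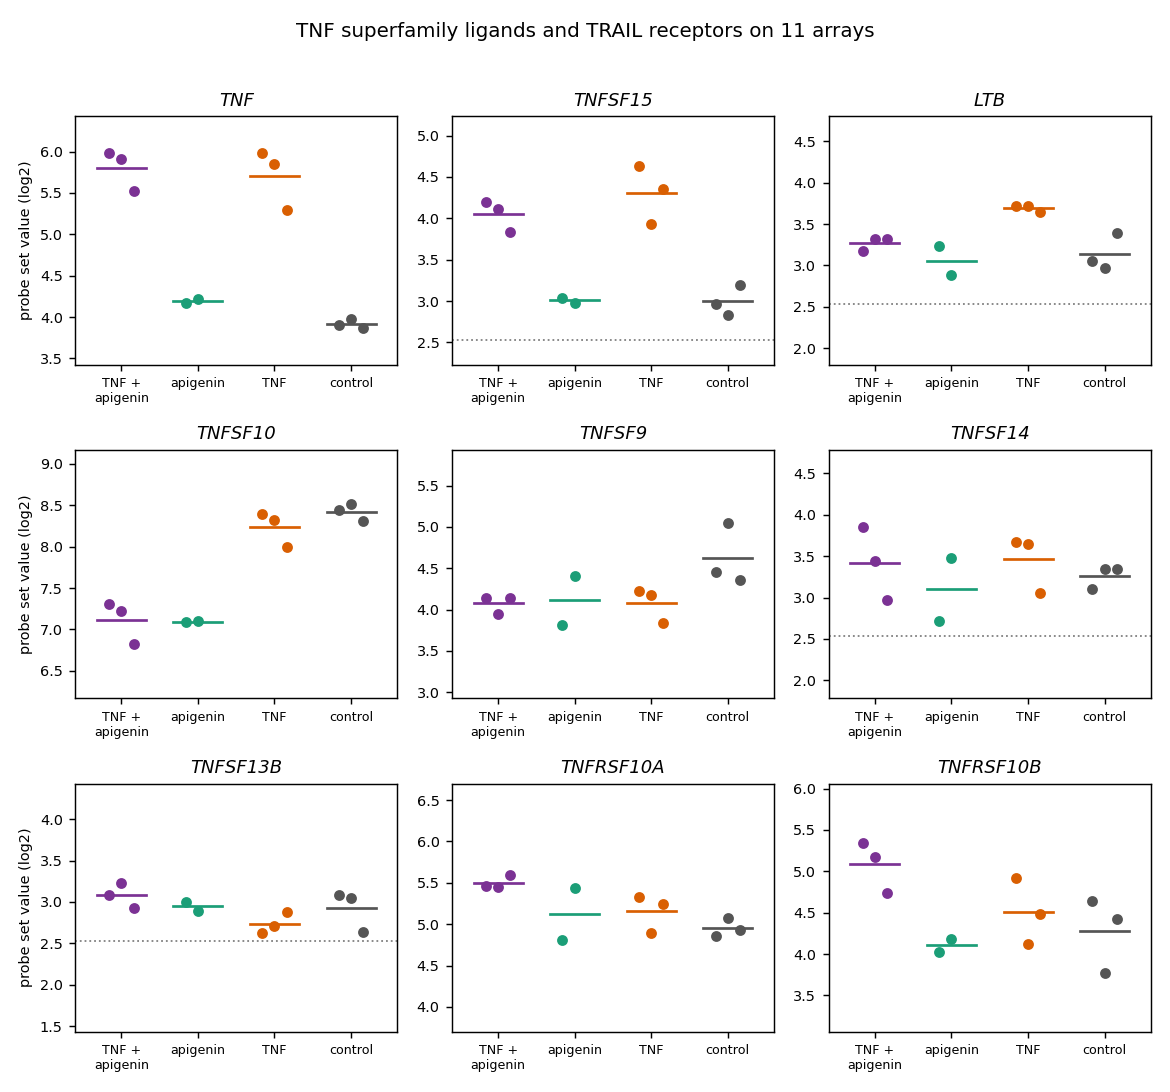
Probe set values (vertical axis, log2) of the 9 genes on the 11 arrays, by group. Points are arrays in replicate order, bars are group means, each panel spans 3 log2 units around its own gene, and the dotted line is the median of all probe sets at 2.53 where it falls in the panel. TNF and TNFSF15 are high on all arrays with TNF, and TNFSF10 is low on all arrays with apigenin.

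Apigenin lowered TNFSF10, the gene of TRAIL, in cells with and without TNF, while the arrays of TNF and of control overlapped. TNFSF10 read 7.31, 7.22 and 6.82 with TNF plus apigenin, 7.09 and 7.1 with apigenin, 8.4, 8.33 and 8 with TNF, and 8.44, 8.51 and 8.31 in control. The 5 arrays with apigenin lay below the 6 without it. TNFSF10 averaged 7.09 ± 0.01 (SD, n = 2) with apigenin and 8.42 ± 0.1 (SD, n = 3) in control. That is a fall of 2.51-fold (log2 change -1.33 ± 0.2, limma adjusted p = 0.00305), or -1.15 relative to the median change of all genes. In cells that also received TNF it averaged 7.12 ± 0.26 with TNF plus apigenin and 8.24 ± 0.21 with TNF (SD, n = 3 each), a fall of 2.18-fold (log2 change -1.13 ± 0.18, limma adjusted p = 0.00564). These comparisons use separate arrays, and both calls held in all 21 alternative fits. TNFSF10 has 1 probe set, so the alternatives for the choice of probe set could not change its values. Without apigenin replicate 1, the array with the narrow distribution, the change of apigenin against control was -1.32 (limma adjusted p = 0.0382).

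TNF alone differed from control in TNFSF10 by -0.18, with a 95% interval of -0.56 to 0.2 (limma adjusted p = 0.929), and TNF plus apigenin differed from apigenin by 0.02, with an interval of -0.41 to 0.45. The interaction was 0.2, with an interval of -0.37 to 0.78 (limma adjusted p = 0.789). TNF plus apigenin against control gave a change of -1.31 ± 0.18 (limma adjusted p = 0.00105). In order of mean, TNFSF10 stood highest in control, then in TNF, TNF plus apigenin and apigenin. Neighbours overlapped in this order except TNF and TNF plus apigenin. In these bulk samples fewer cells with the transcript and less of it per cell cannot be told apart.

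Apigenin against control called 0 of the 9 genes higher and 1, TNFSF10, lower. Over all genes 3.66% were called, 3.44% lower and 0.221% higher (546 and 35 genes, or 449 and 146 after quantile normalization), so 1 of 9 is not far from that background. TNFSF10 was also the only 1 of the 9 with an unadjusted p under 0.05, as 19.5% of all genes had, and 2 of the 9, TNF and TNFSF10, had arrays that did not overlap, as did 31.5%. TNF plus apigenin against TNF called 0 of the 9 higher and 1, TNFSF10 again, lower, where 1.07% of all genes were called (0.384% higher and 0.681% lower, which is 61 and 108 genes, or 221 and 170 with limma's array weights). In that comparison 3 of the 9 had an unadjusted p under 0.05, as did 11.1% of all genes, and 4 had arrays that did not overlap, as did 15.7%. The median change of the 9 genes was -0.08 for apigenin against control, against -0.18 for all genes.

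**Figure D3:**
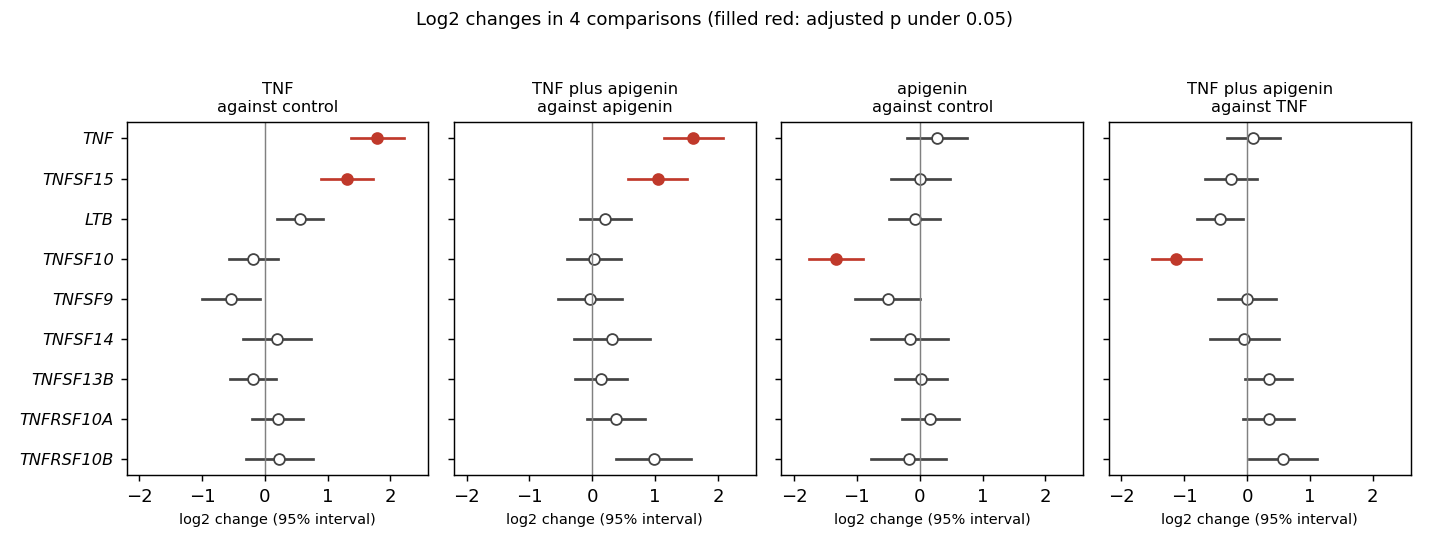
Log2 change (horizontal axis) of each of the 9 genes in 4 comparisons, with limma's 95% interval. Filled red points passed an adjusted p of 0.05. TNF and TNFSF15 did so in both comparisons that add TNF, and TNFSF10 in both that add apigenin. For TNFSF15 in TNF plus apigenin against apigenin the limma adjusted p was 0.0497.

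**Figure D4:**
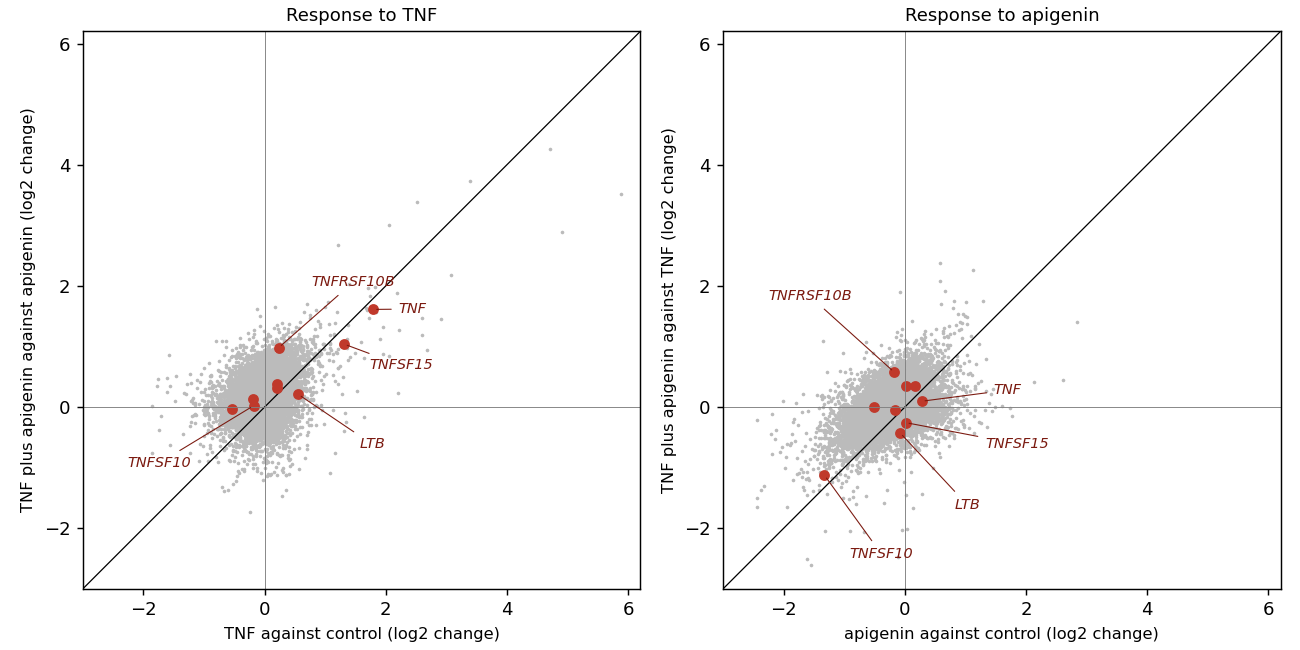
Log2 changes of 15865 genes (grey) and of the 9 genes (red), with the response to TNF in the presence of apigenin against that in its absence (left) and the response to apigenin in the presence of TNF against that in its absence (right). The axes of a panel come from separate arrays and the black line marks equal change. TNF lies at 1.79 and 1.61 on the left, TNFSF10 at -1.33 and -1.13 on the right, both near the line.

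The death receptors of TRAIL were highest with both agents together, but neither passed the test. TNFRSF10B, the gene of DR5, read 5.35, 5.17 and 4.74 with TNF plus apigenin, 4.03 and 4.19 with apigenin, 4.92, 4.12 and 4.49 with TNF, and 4.64, 3.78 and 4.43 in control. The arrays of TNF plus apigenin lay above those of control and of apigenin and overlapped those of TNF. TNFRSF10B was 0.8 ± 0.25 higher with TNF plus apigenin than in control (limma adjusted p = 0.112, unadjusted p = 0.00607) and 0.98 ± 0.28 higher than with apigenin alone (limma adjusted p = 0.13). Its TNF response with apigenin exceeded that without it by 0.75, with an interval of -0.06 to 1.55 (limma adjusted p = 0.613). The intervals of the single agents against control were -0.77 to 0.42 for apigenin and -0.31 to 0.77 for TNF.

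TNFRSF10A, the gene of DR4, read 5.46, 5.45 and 5.59 with TNF plus apigenin, 4.81 and 5.44 with apigenin, 5.33, 4.9 and 5.25 with TNF, and 4.85, 5.07 and 4.93 in control. The 3 arrays of TNF plus apigenin were the highest of all 11, and the apigenin arrays spanned most of the range of the others. TNFRSF10A was 0.55 ± 0.19 higher with TNF plus apigenin than in control (limma adjusted p = 0.157, unadjusted p = 0.0121). With limma's array weights both receptors passed in that comparison. TNFRSF10A stood at 0.55 (limma adjusted p = 0.0384) and TNFRSF10B at 0.75 (limma adjusted p = 0.0367). This raised the count of called genes among the 9 to 5, in a fit that called 1197 of all 15865 genes, against 447 without weights. Without weights TNF plus apigenin against control called TNF and TNFSF15 higher and TNFSF10 lower, 3 of the 9. There 2.82% of all genes were called (1.04% higher and 1.78% lower). Of the 9 genes 6 had an unadjusted p under 0.05, as did 15.9% of all genes, and 6 had arrays of both groups that did not overlap, as did 20.1%.

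TNFSF9, the gene of 4-1BB ligand, a costimulator of T cells, had its highest mean in control. It read 4.15, 3.95 and 4.14 with TNF plus apigenin, 3.81 and 4.41 with apigenin, 4.22, 4.18 and 3.83 with TNF, and 4.45, 5.05 and 4.36 in control. Control replicate 2 was the highest array, and the arrays with TNF lay below all control arrays. No comparison passed the test. TNF plus apigenin and TNF alone each differed from control by -0.54 ± 0.22 (limma adjusted p = 0.227 and 0.528), and apigenin by -0.51 ± 0.24 (limma adjusted p = 0.263).

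TNFSF14 and TNFSF13B were not called in any comparison. TNFSF14 encodes LIGHT, which binds the herpesvirus entry mediator (TNFRSF14) and LTBR, and it ranged from 2.72 to 3.85 over the 11 arrays, with the highest values on arrays with TNF and overlap between all groups. TNFSF13B encodes BAFF, a survival factor of B cells, and it ranged from 2.63 to 3.23. The 6 comparisons included a difference of 0.35 for TNFSF13B between TNF plus apigenin and TNF alone, whose arrays did not overlap (limma adjusted p = 0.495, unadjusted p = 0.0665).

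Of 11 other ligands of the superfamily, 8 had a probe set of their own and 3 of these (LTA, CD70 and TNFSF11) passed the filter on low values. None was called by limma in any of the 6 comparisons. At most 1 of the 3 had an unadjusted p under 0.05 in any of them, where 7.41% to 19.5% of all genes did. The largest difference was that of CD70, the ligand of CD27, which averaged 3.19 ± 0.005 with apigenin (SD, n = 2) and 4.12 ± 0.51 in control (SD, n = 3), a change of -0.93 ± 0.25 (limma adjusted p = 0.0522, unadjusted p = 0.00194). LTA, which pairs with LTB, stood at 2.7 ± 0.14 with TNF and 3.04 ± 0.37 in control (SD, n = 3 each). FASLG, the ligand of the death receptor FAS, averaged between 1.52 and 1.82 in the 4 groups, below the mark of background.

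The receptors that these ligands bind were not called by limma in any of the 6 comparisons. At most 2 had an unadjusted p under 0.05, in TNF plus apigenin against apigenin, where 15.7% of all genes did. Of 13 receptors and decoys listed, 9 had a probe set of their own and 7 passed the filter. TNFRSF1A, the main TNF receptor of epithelial cells, averaged 5 ± 0.27 with TNF and 5.29 ± 0.15 in control (SD, n = 3 each). TNFRSF10D, a TRAIL receptor with a truncated death domain that acts as a decoy, averaged 4.45 ± 0.74 with TNF plus apigenin and 3.48 ± 0.23 in control (SD, n = 3 each), a difference of 0.97 ± 0.31 (limma adjusted p = 0.121). TNFRSF25, which encodes DR3, the receptor of TL1A, lay between 2.73 and 2.86 in the 4 groups, near background. LTBR, the receptor of lymphotoxin beta and LIGHT, lay between 6.03 and 6.09 in the 4 groups.

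The apoptosis genes below the TRAIL receptors gave 0 calls among 11 tested, of 14 listed, in all 6 limma comparisons. Outside apigenin against control at most 3 of them had an unadjusted p under 0.05, where 7.41% to 15.9% of all genes did. In apigenin against control 4 of them did, all with lower values in apigenin, where 19.5% of all genes reached that level. These were CASP10, an initiator caspase (log2 change -0.83, limma adjusted p = 0.0656), CFLAR, the gene of the caspase-8 inhibitor cFLIP (-0.67, limma adjusted p = 0.101), BAX (-0.62, limma adjusted p = 0.147) and the caspase inhibitor XIAP (-0.57, limma adjusted p = 0.184). The largest difference in this list was a higher value, that of BIRC2, the gene of the inhibitor of apoptosis cIAP1, which stood 1.04 above apigenin with TNF plus apigenin (limma adjusted p = 0.0545) and 0.71 above control (limma adjusted p = 0.0793). The adaptor FADD stood at 4.89 ± 0.3 with TNF and 4.87 ± 0.09 in control (SD, n = 3 each). Among 10 genes of ligand shedding and TNF messenger RNA turnover, ZFP36L2, of the zinc finger proteins that destabilise messenger RNA, fell with apigenin. Its log2 change was -0.87 ± 0.22 (limma adjusted p = 0.0391), or -0.69 relative to the median change of all genes. In that comparison 3.44% of all genes were called lower. The other 9 genes of this list were not called in any comparison. ZFP36, which encodes the TNF mRNA destabiliser tristetraprolin, changed by -0.68 with TNF against control (limma adjusted p = 0.348). Of 6 stress regulators linked to TNFRSF10B, 0 were called in any comparison. At most 1 had an unadjusted p under 0.05 in any of them, where 7.41% to 19.5% of all genes did. ATF3 stood 0.78 ± 0.31 above control with TNF plus apigenin (limma adjusted p = 0.22), and the other regulators there lay between -0.2 and 0.36.

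The genes whose pattern over the 11 arrays was most like that of a called gene were named by Pearson's r among the 906 other genes whose group means spanned at least 1 log2 unit. For TNF they were TNFAIP3 (r = 0.982), SGPP2, a phosphatase of sphingosine 1-phosphate (0.976), and the adhesion receptor gene ICAM1 (0.972). For TNFSF15 they were the integrin gene ITGA5 (0.953), C1QTNF1 (0.951) and the monocyte chemokine gene CCL2 (0.936). For TNFSF10 they were CYP4X1 (0.987), the mucin gene MUC1 (0.985) and the mitotic kinesin gene KIF20A (0.98). The 11 arrays share the group differences, so these values describe a common order of groups. MUC1 averaged 6.09 with TNF plus apigenin, 5.85 with apigenin, 7.74 with TNF and 7.81 in control. Among the 9 genes, TNF and TNFSF15 had the highest correlation over the 11 arrays (r = 0.923).

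Most markers of other cell types were low, macrophage markers less so. PTPRC, the common leukocyte marker, averaged 1.46 over all arrays, and of 5 T cell markers, 2 B cell markers, 3 NK cell markers and 4 fibroblast markers with a probe set none had a mean above 4. Of 8 macrophage markers 3 had a mean above 4, with CD68 the highest at 5.32, and the summed log2 values of all 8 ran from 22.7 to 24.9 with TNF plus apigenin, 23.2 to 23.6 with apigenin, 23.8 to 24.7 with TNF and 25.3 to 26 in control. Without CD14, a receptor for bacterial lipopolysaccharide, the other 7 summed to between 18.5 and 19.9 with TNF plus apigenin, 18.8 and 19.3 with apigenin, 18.5 and 19.6 with TNF, and 18.6 and 19.6 in control, so the ranges overlapped. CD14 fell with apigenin, as TNFSF10 did (log2 change -2.06, limma adjusted p = 0.000354), and with TNF plus apigenin against control (log2 change -1.97, limma adjusted p = 0.000119). Unlike TNFSF10, it was also called lower with TNF alone (log2 change -1.22, limma adjusted p = 0.00829) and was not called for TNF plus apigenin against TNF (log2 change -0.75, limma adjusted p = 0.116). The integrin gene ITGAM averaged 3.15 ± 0.56 with TNF and 2.41 ± 0.14 in control (SD, n = 3 each), without overlap of the arrays (log2 change 0.74, limma adjusted p = 0.305). Among the 7 epithelial markers, the keratin gene KRT19 fell with TNF plus apigenin against control (log2 change -0.82, limma adjusted p = 0.0133), the only call for these markers in the 6 comparisons. KRT18 differed there by -0.54, with arrays that did not overlap (limma adjusted p = 0.149). The part of these markers in the results for the 9 genes was not tested.

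The TNF and LTB genes each had 8 probe sets with 1 symbol. For each gene 7 of these held identical values on all arrays and were those used above, so they count as 1 measurement. The eighth held values of its own. For LTB it averaged 2.52 ± 0.23 with TNF and 2.34 ± 0.22 in control (SD, n = 3 each), both at background, so the LTB values above rest on the 7 identical probe sets.

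**Figure D5:**
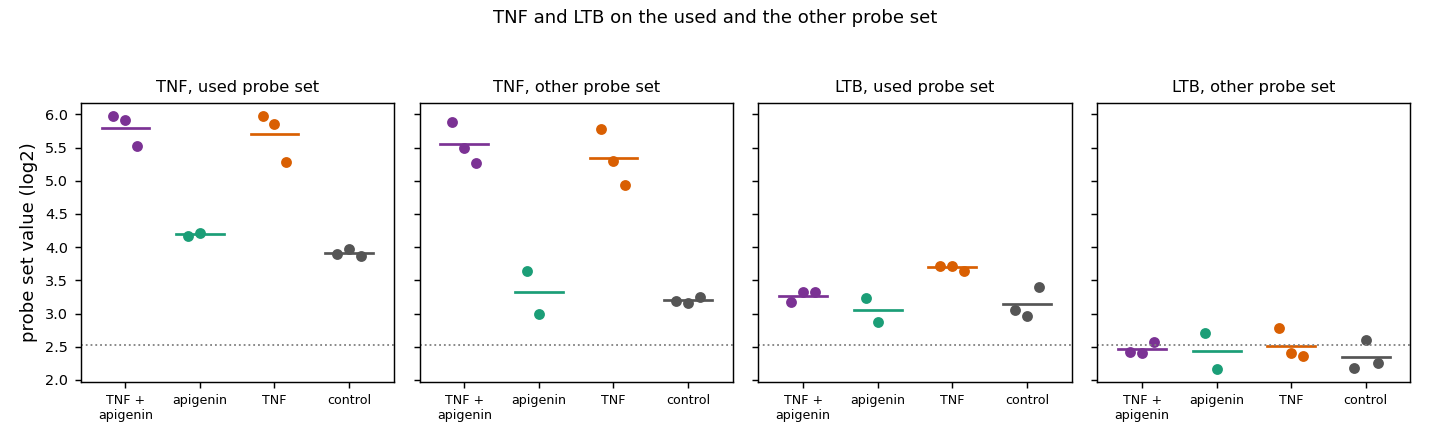
Values (vertical axis, log2) of TNF and LTB by group on the probe set used, which stands for 7 with identical values, and on the other one. Points are arrays in replicate order, bars are group means, and the dotted line is the median of all probe sets at 2.53. Both TNF probe sets separate arrays with and without TNF, whereas the other LTB probe set stays at background in all groups.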

How the data were processed

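The authors deposited log2 probe set summaries of GeneChip Human Gene 2.1 ST arrays. Affymetrix Expression Console made them, per the submitters' processing notes, which name no version. How probes were summarised and how arrays were put on 1 scale is not stated there. That the logarithm has base 2 was inferred from the range, 0.38 to 12.3. No detection calls were used, and the number of arrays limits the precision. Of 53617 probe sets, 23871 had 1 symbol in the array's table and 1842 several; 22569 matched a RefSeq gene (GRCh38.p14), which updated 90 symbols. Testing required 2 or more arrays to reach 2.53, the middle of all probe set means. limma 3.58.1 (R 4.3.3) fitted 1 mean per group to all 11 arrays (7 residual degrees of freedom; lmFit, eBayes), two-sided, with Benjamini-Hochberg adjustment over 15865 genes and a threshold of 0.05. The fit was tested for TNF against control alone, on simulated data with independent noise. That test did not cover the comparisons with apigenin. The interaction is the TNF effect with apigenin minus that without. The 9 genes, the context lists and the tests were chosen with earlier results of these data known. All 9 genes were named; from the context lists, called genes and up to 4 binding partners (LTA, TNFRSF1A, TNFRSF10D and TNFRSF25), and for each called member the 3 genes of highest r. CD70, FASLG, LTBR, CASP10, CFLAR, BAX, XIAP, BIRC2, FADD, ZFP36, ATF3, ITGAM, KRT18, CD68, PTPRC and VWF were also named, chosen after their values were seen. Alternatives covered normalization, filter, block, weights, trend, groups in the fit, probe set choice and leaving out each array.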

Additional observations from a re-analysis of the deposited data

Results flagged for a closer look

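The TNF probe set that was not used gave a signal above control on all TNF arrays. It read 5.89, 5.49 and 5.28 with TNF plus apigenin, 3.64 and 2.99 with apigenin, 5.78, 5.3 and 4.93 with TNF, and 3.19, 3.16 and 3.24 in control. The mean of the TNF arrays exceeded that of the control arrays by 2.14 on the log2 scale, where the 7 identical probe sets gave 1.79.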

How the results depend on the processing

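Of the 9 changes called among the 9 genes, the 7 other than those of TNF and TNFSF15 for TNF plus apigenin against apigenin kept their call in all 21 alternative fits. TNF and LTB alone had a second row of values, so the probe set alternatives could not change the values of TNFSF10 and TNFSF15. The calls of context and marker genes were not repeated under these alternatives. The number of called genes among the 9 became 5 with array weights for TNF plus apigenin against control, and 1 for TNF plus apigenin against apigenin under quantile normalization, no filter on low values, the replicate block, array weights, only the groups compared and the mean of a gene's probe sets (0 to 2 with an array left out). The cause was not tested. Correlations of the arrays' deviations from their group means did not show a general pairing by replicate number. Of 15 same-numbered pairs, 4 had a correlation of deviations over 0.1 (median 0.02, against -0.02 for 30 other pairs). The highest of all pairs was 0.275, between replicate 3 of control and replicate 3 of TNF. The 2 apigenin arrays deviate from their mean by equal and opposite amounts, so their pairs mirror each other and say little about pairing. Between TNF and TNF plus apigenin, same-numbered arrays had 0.242, 0.0225 and 0.255, and differently numbered ones ran from -0.392 to 0.189. A pairing of these groups alone was not tested. The replicate block changed no other call of the 9 genes. The interaction needs all 4 groups, so it had no fit of only the groups compared.

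Over all genes, TNF against control gave 186 calls after quantile normalization, 221 with array weights and 61 to 128 with an array left out, against 111. Apigenin against control gave 207 with array weights, 103 in a fit of the groups compared and 85 to 1294 with an array left out, against 581. TNF plus apigenin against TNF gave 510 after quantile normalization, 391 with array weights and 85 to 198 with an array left out, against 169; without replicate 3 of TNF plus apigenin 59 were higher and 48 lower. TNF plus apigenin against control gave 1233, 1197 and 206 to 545 in the same order, against 447. TNF plus apigenin against apigenin gave 173 with arrays shifted to 1 median, 32 with array weights, 16 in a fit of the groups compared and 18 to 600 with an array left out, against 91. The interaction gave 7 after quantile normalization, 0 with the replicate block and 0 to 7 with an array left out, against 4.

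The sign turned only for changes that had not been called. For apigenin against control these were TNFSF15 at -0.064 with array weights, TNFSF13B at -0.024 with the replicate block, LTB at 0.095 on its other probe set (an alternative chosen after seeing the data) and TNFRSF10B at 0.008 after quantile normalization. For TNF plus apigenin against TNF it was TNFSF14 at 0.09 with array weights. For TNF plus apigenin against apigenin they were TNFSF10 at -0.235 after quantile normalization and TNFSF9 at 0.04 with the replicate block. For the interaction they were TNF at 0.093 on its other probe set, and TNFSF10 at -0.111 and TNFRSF10A at -0.1 after quantile normalization.

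With an array left out, TNFRSF10B ranged from -0.022 to 0.424 for TNF against control. For apigenin against control the ranges were -0.072 to 0.107 for TNFSF15, -0.545 to 0.221 for TNFSF14, -0.115 to 0.104 for TNFSF13B, -0.261 to 0.1 for LTB, -0.147 to 0.485 for TNFRSF10A and -0.427 to 0.004 for TNFRSF10B. For TNF plus apigenin against TNF they were -0.114 to 0.236 for TNF, -0.123 to 0.072 for TNFSF9 and -0.258 to 0.184 for TNFSF14, and against control -0.06 to 0.382 for TNFSF14. For TNF plus apigenin against apigenin they were -0.072 to 0.171 for TNFSF10, -0.333 to 0.264 for TNFSF9 and -0.065 to 0.701 for TNFSF14. For the interaction they were -0.263 to 0.502 for TNFSF14 and -0.142 to 0.49 for TNFRSF10A. Low signal limits TNFSF13B, TNFSF14, LTB and the untreated level of TNFSF15.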

Other observations

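CDH5, an endothelial cadherin gene, changed in opposite directions with the single agents. It averaged 3.13 with TNF plus apigenin, 2.43 with apigenin, 4.38 with TNF and 3.46 in control, with a rise of 0.92 for TNF against control (limma adjusted p = 0.0448), a fall of 1.03 for apigenin against control (log2 change -1.03, limma adjusted p = 0.0178) and a fall of 1.25 for TNF plus apigenin against TNF (log2 change -1.25, limma adjusted p = 0.00451). The endothelial marker VWF averaged 1.87 over all arrays, below background.

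CYP1A1 and CYP1B1 were lower with TNF plus apigenin than with apigenin alone, by 1.46 (log2 change -1.46, limma adjusted p = 0.0146) and 0.89 (log2 change -0.89, limma adjusted p = 0.0419).

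Some deposited values recur exactly between arrays. TNFSF14 and LTB each had 10 distinct values on 11 arrays, such as 3.32 for LTB on 2 arrays of TNF plus apigenin. Over all genes, 54.6% of the 11590 with a mean below the 65th percentile of the probe sets and 31% of the other 10805 had at least 1 repeated value.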
